A study of Homo sapiens with 12 samples.

Results

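The heat shock proteins, chaperonins and co-chaperones are the proteins that fold, hold and unfold other proteins. Their genes were taken from the expression table by name, as every symbol that starts with HSPA, HSPB, HSP90, DNAJA, DNAJB, DNAJC, CCT or BAG followed by its number or letter, with HSPD1, HSPE1 and HSPH1, and without symbols that hold a hyphen or end as pseudogene symbols do. This gave 89 of the 58191 rows, and 68 symbols with the same stems were left out by the hyphen and pseudogene clause. That clause also left out HSPBP1 and HSPBAP1, which are not pseudogenes, and the stems do not take TCP1, the founding subunit of the cytosolic chaperonin, or TRAP1, the HSP90 of mitochondria. RNA sequencing measured 12 libraries from human leukaemia cells in 4 groups of 3, which are K562 and cells labelled MOLM14, each as control and as cells that overexpress EVI1. Controls are labelled as wild type, no label names an empty vector, a clone or a drug, and EVI1, a DNA-binding zinc finger protein, is the product of MECOM. K562 comes from a chronic myeloid leukaemia in blast crisis and has erythroid features, and MOLM14 is a monocytic acute myeloid leukaemia line with mutated FLT3. The question put to these genes was how their levels differed with EVI1 overexpression under each label, and whether that effect differed between the labels.

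Chaperones work as linked machines. HSP70 proteins (the HSPA genes) grip unfolded stretches of protein in cycles of ATP hydrolysis, J proteins (DNAJA, DNAJB, DNAJC) bring them their clients and start the hydrolysis, and exchange factors such as HSPH1 and the BAG proteins let ADP go and end the cycle. Clients can pass on to HSP90, which completes kinases and hormone receptors, or into closed chambers built from chaperonin rings, which are the CCT complex in the cytosol and HSPD1 with its lid HSPE1 in mitochondria. Small heat shock proteins (HSPB) hold unfolding proteins without using ATP. Cytosolic members are classically switched on by the heat shock factor HSF1, and those of the endoplasmic reticulum by ATF6 and the unfolded protein response.

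Levels are given in FPKM, fragments per kilobase of transcript scaled to the size of the library, so that levels of different genes can be set side by side. Fold changes are on the log2(FPKM + 1) scale, where genes of low FPKM show less change than they have. They were tested with limma over all genes of a comparison, with Benjamini-Hochberg adjustment, and a gene is called, or said to rise or fall, where the adjusted p was under 0.05. The labels name no separate cultures, so that the p-values measure the spread between these samples, which may be technical.

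MECOM, the overexpressed gene, rose under both labels, at 12.2 ± 2.08 against 24.0 ± 1.94 FPKM in K562 (mean ± SD, n = 3 each) and at 8.55 to 9.66 against 16.9 to 18.0 FPKM in the libraries labelled MOLM14. In the K562 libraries the spacing of low values gave depths of about 36100000 to 74800000 fragments, and no depth was estimated for the other 6. For the columns labelled MOLM14, gene names hold in the first 5510 rows alone, where the control means of both labels correlated across genes at r = 0.973 against 0.314 beyond. Of the 89 chaperone genes 31 lie in those rows, and the other 58 are described in K562 only. The data go against the label MOLM14: in those libraries FLT3, whose mutated form drives the line, was at 0 in 5 of 6 and at 0.00915 FPKM in the other, HOXA9 was at 0 to 0.0245 FPKM, and the erythroid factors GATA1 and KLF1 stood at 107 to 150 and 32.0 to 63.1 FPKM. The 4 usable K562 markers summed to 413 to 435 FPKM in controls labelled MOLM14 and to 626 to 651 FPKM with EVI1, and the 6 usable MOLM14 markers, mostly LYZ, SPI1 and CD33, to 159 to 162 and 74.8 to 76.1 FPKM. With EVI1 all 4 of the former rose and LYZ, SPI1 and CD33 fell, and the part of this in the chaperone results was not tested. The label is used only as a name for the libraries. In the K562 libraries GATA1 stood at 150 ± 1.35 FPKM in controls and 164 ± 13.3 FPKM with EVI1, and FLT3, HOXA9 and HOXA10 were at 0. All 13 MOLM14 markers summed there to 148 to 174 FPKM in controls and 167 to 189 FPKM with EVI1. CD68, SPI1, CD33 and LYZ made up most of the control sum. CD33 rose from 24.7 ± 0.414 to 53.3 ± 4.54 FPKM, MEIS1 also rose, SPI1 and LYZ fell and CD68 was not called. Of the 13 K562 markers 6 fell there (KLF1, TFRC, LMO2, EPOR, ALAS2 and HBZ), 3 rose (HBE1, HBG1 and NFE2) and 4 were not called, and the embryonic globin HBE1 and fetal HBG1 and HBG2 made up most of their sum. KLF1 fell by 0.40 and TFRC by 0.42 on the log2 scale in K562, and their effects were higher under the label MOLM14 by 1.17 and 1.14 log2 units (both differences called). The part of these markers in the chaperone results was not tested. K562 control replicate 2 and K562 EVI1 replicate 1 list abundant mitochondrially encoded genes at 0 and are left out where stated.

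A few promoter stretches are shown first, since the known control elements of cytosolic and endoplasmic reticulum chaperones differ. Sequences are from RefSeq on build GRCh38.p14 and lie before the gene's start, 5′ to 3′ on the gene's strand, and capitals mark a motif. The heat shock element, which HSF1 binds, was taken as GAA, TTC and GAA with 2 free bases in each gap. It was searched on both strands from 250 bases before to 50 after each start. It occurred in 7 of the 77 chaperone genes with such a window (9.09%) and in 0.608% of 27305 genes. HSPA8 on chromosome 11 has a pair of matches (chr11:123062346-123062375 and chr11:123062171-123062200, minus strand), HSP90AA1 has 1 (chr14:102087112-102087141, minus strand), HSP90AB1 a pair (chr6:44247693-44247865, plus strand) and DNAJB6 1 (chr7:157336774-157336965, plus strand). Where a match lies in an annotated exon of a longer transcript, as in HSPA8 and HSP90AA1, only the bases around it are given:
HSPA8, distal: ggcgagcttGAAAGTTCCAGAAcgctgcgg
HSPA8, proximal: gcgggccccTTCTGGAAGGTTCtaagatag
HSP90AA1: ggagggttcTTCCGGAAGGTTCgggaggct
HSP90AB1: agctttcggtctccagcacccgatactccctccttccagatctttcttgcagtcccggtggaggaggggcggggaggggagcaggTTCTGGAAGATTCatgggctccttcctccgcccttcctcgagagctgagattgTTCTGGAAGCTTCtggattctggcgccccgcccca
DNAJB6: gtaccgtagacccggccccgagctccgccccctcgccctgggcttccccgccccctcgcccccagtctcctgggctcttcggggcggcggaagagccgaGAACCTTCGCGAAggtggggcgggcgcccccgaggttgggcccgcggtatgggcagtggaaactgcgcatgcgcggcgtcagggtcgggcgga

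The other 3 genes with a heat shock element were DNAJA1, HSPA6 and HSPD1. The endoplasmic reticulum stress element, CCAAT and CCACG with 9 free bases between, which ATF6 binds together with NF-Y, was searched in the same way and found in 2 chaperone genes (2.6% of 77) and in 0.0916% of all genes. HSPA5 has a match at chr9:125241344-125241593 (minus strand), and HSP90B1 a pair at chr12:103930210-103930239 and chr12:103930315-103930344 (plus strand), both shown as site alone because they lie in an annotated exon:
HSPA5: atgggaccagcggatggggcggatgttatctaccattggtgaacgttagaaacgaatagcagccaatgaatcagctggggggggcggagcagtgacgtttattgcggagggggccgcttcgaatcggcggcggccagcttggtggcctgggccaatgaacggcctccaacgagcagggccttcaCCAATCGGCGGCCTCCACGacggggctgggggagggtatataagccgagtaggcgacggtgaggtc
HSP90B1, distal: ccctgaCCAATCGGAAGGAGCCACGcttcg
HSP90B1, proximal: tgggtgCGTGGTGCGGCGCGATTGGtgggt

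The E-box CACGTG, the site of MYC and its relatives, was found in 8 chaperone genes, a share of 10.4% against 8.77% of all genes. A match describes these letters and does not show that a factor is bound there.

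In K562 the chaperone genes moved both ways with EVI1, and falls were more numerous. Of the 71 that passed the filter of at least 1 FPKM in at least 3 libraries, 31 fell (43.7%, against 23.7% of all 13800 genes tested) and 13 rose (18.3% against 28.2%), and 27 were not called, so that 62% were called in either direction against 51.9% of all genes. Their median log2 fold change was -0.12, and that of all genes tested 0.01. Among the rises, DNAJC15 and DNAJC22 passed the filter only through the EVI1 libraries, so that they were partly set by the filter. These are bulk samples, in which fewer cells of a type and less RNA per cell cannot be told apart. The falls included cytosolic HSP70s, J proteins of the cytosol, mitochondria and endoplasmic reticulum, both chaperonins, 3 BAG genes, HSPB1 and HSPB11, and the highest rises at more than 2 FPKM were in HSPA5, DNAJB2 and HSP90B1. With libraries rescaled to the same FPKM sum the split was 13 up and 19 down. Of all 13800 genes tested 4110 then rose and 2178 fell, with a median of 0.07. Without K562 EVI1 replicate 3, 8 of 69 chaperone genes rose, and 2918 of all 13076 genes tested. Without both libraries that list mitochondrially encoded genes at 0, 5 of 69 chaperone genes rose (HSPA5, HSP90B1, DNAJB2, DNAJB5 and DNAJC6) and 21 fell. Of all 12683 genes tested without them 2573 rose and 2197 fell. DNAJC15 and DNAJC22 did not pass the filter in either fit. Beside these changes the 6 stress markers all rose in K562, from a summed 127 to 137 FPKM in controls to 424 to 518 with EVI1, among them DDIT3 (34.8 against 98.3 FPKM), ATF3 and TRIB3. Of the T cell markers only TRAC and CD3D passed the filter, and the sum of the list went from 36.4 to 41.6 FPKM to 66.9 to 77.0 FPKM while CD2 was near 0. The part of either in the chaperone results was not tested.

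**Figure D1:**
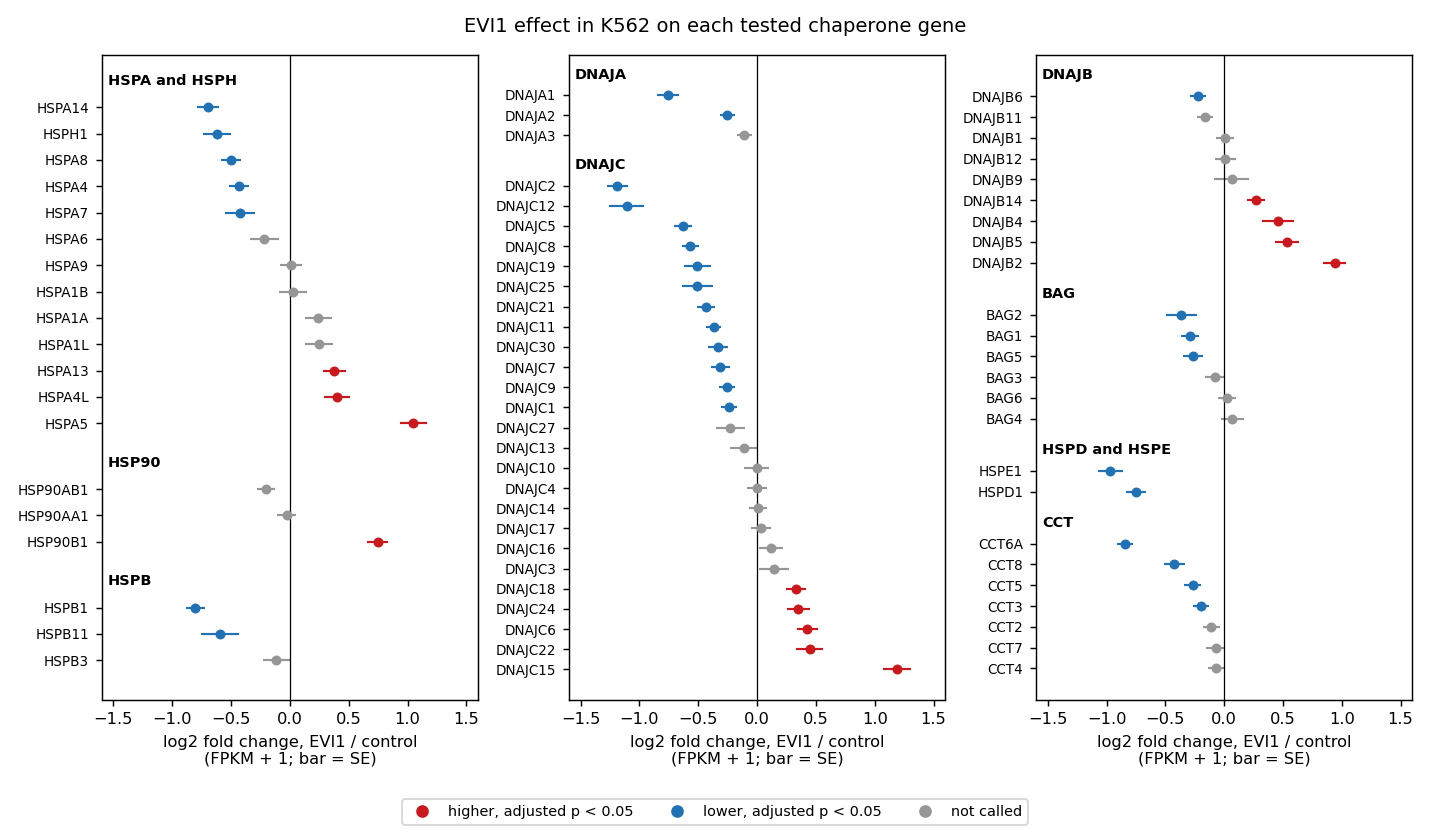
Log2 fold change (EVI1 over control, log2(FPKM + 1)) of each of the 71 tested chaperone genes in K562, by subfamily, with bars for the standard error and colour for calls at adjusted p under 0.05. The CCT genes, HSPD1 with HSPE1, and the DNAJA, BAG and HSPB genes have calls to the left of 0 only. The HSPA and HSPH, DNAJB and DNAJC genes have calls on both sides, and the called HSP90 gene lies to the right. The range is from -1.19 for DNAJC2 to 1.19 for DNAJC15, which passed the filter only through the EVI1 libraries.

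Among the genes named HSPA, with HSPH1, 5 of 13 tested fell and 3 rose. Over all genes tested in K562 23.7% fell and 28.2% rose. HSPA8 encodes the constitutive cytosolic HSP70, HSC70, and was the second most abundant chaperone transcript of K562. It stood at 1783, 1640 and 1584 FPKM in controls and at 1165, 1128 and 1245 FPKM with EVI1, so that no EVI1 library reached a control. Its log2 fold change was -0.50 (SE 0.08, adjusted p = 0.00138 by limma). Every EVI1 library lay below every control in 28.2% of all genes tested in K562, and above every control in 32.4%. HSPH1, the HSP110 exchange factor of HSP70, fell from 67.5, 60.5 and 61.6 FPKM to 43.7, 33.4 and 46.0 FPKM (-0.62), and its relative HSPA4 fell from 203 ± 13.3 to 151 ± 11.7 FPKM (-0.43). HSPA14, the ribosome-bound HSP70 that pairs with the J protein DNAJC2, fell from 38.5 ± 1.5 to 23.5 ± 2.59 FPKM (-0.69).

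HSPA5 went the other way. It encodes BiP, the HSP70 of the endoplasmic reticulum and the sensor partner of the unfolded protein response. It stood at 131, 129 and 141 FPKM in K562 controls and at 270, 332 and 238 FPKM with EVI1, a 2.10-fold higher mean (log2 fold change 1.05, SE 0.12, adjusted p = 0.000156). The lowest EVI1 library was well above the highest control, and EVI1 replicate 2 was the highest of the group. HSPA13, another HSP70 of microsomes, rose from 7.88 ± 0.578 to 10.5 ± 0.886 FPKM (0.38), and HSPA4L, a cytosolic relative of HSPA4, from 18.2 ± 2.41 to 24.3 ± 2.13 FPKM (0.40).

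The stress-inducible HSP70 genes HSPA1A, HSPA1B and HSPA6 were not called. HSPA1A stood at 94.3, 90.6 and 86.7 FPKM in controls and at 104, 92.5 and 129 FPKM with EVI1, with overlapping groups and a log2 fold change of 0.24 that was not called (adjusted p = 0.108). HSPA1B stood at 37.5 ± 2.44 and 38.5 ± 6.78 FPKM. Of the 75-base stretches of these transcripts, 71.2% in HSPA1A and 73.2% in HSPA1B occur in the other gene, so the split of reads between them is uncertain. HSPA6, a stress-induced gene that shares 35% of its 75-base stretches with HSPA7, was not called at 4.63 ± 0.755 and 3.82 ± 0.326 FPKM. HSPA7 was called lower (-0.43) with the same uncertainty, and its call was lost under 6 of 15 alternative settings. HSPA9, the mitochondrial HSP70 mortalin, stood at 225 ± 6.74 and 228 ± 29.5 FPKM.

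Of the 3 HSP90 genes 1 was called in K562, where 51.9% of all genes tested were called. HSP90B1, which encodes GRP94 of the endoplasmic reticulum, rose from 243, 234 and 279 FPKM to 455, 407 and 405 FPKM, with all EVI1 libraries above every control (log2 fold change 0.74, SE 0.09, adjusted p = 0.000229). HSP90AB1, the constitutive cytosolic form and the most abundant chaperone transcript in K562 controls, stood at 1964, 1845 and 1978 FPKM and with EVI1 at 1664, 1690 and 1664 FPKM. Its groups did not overlap, which 28.2% of all genes tested also show in that direction and 32.4% in the other, and its log2 fold change of -0.21 was just short of a call (adjusted p = 0.0508). HSP90AA1, the stress-inducible cytosolic form, stood at 761 ± 54.3 and 745 ± 18.5 FPKM and was not called. Mitochondrial TRAP1, outside the name rule, was not called either at 261 ± 32.4 and 279 ± 23.7 FPKM. CCT5 at 625 FPKM and HSPB1 at 595 FPKM completed the 5 highest control levels.

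HSPB1, the small heat shock protein HSP27, fell from 617, 636 and 533 FPKM to 344, 339 and 335 FPKM in K562. The EVI1 libraries lay close together and far below every control (log2 fold change -0.80, SE 0.08, adjusted p = 0.000106). HSPB11, named with the family but known as a subunit of the intraflagellar transport complex, fell from 79.5 ± 15.5 to 52.4 ± 9.71 FPKM (-0.59), and HSPB3 was not called. Of 8 HSPB genes 5 were under the filter. Of these HSPB8, the BAG3 partner, was listed at 0.0265, 0.0743 and 0.0858 FPKM in controls and at 0.588, 0.597 and 0.445 FPKM with EVI1, too low for the test.

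Among the J proteins of types A and B, which resemble the bacterial DnaJ most, the called DNAJA genes fell and most called DNAJB genes rose. DNAJA1, the main DNAJA partner of HSC70, fell from 125, 112 and 119 FPKM to 71.9, 61.7 and 76.9 FPKM (log2 fold change -0.75, SE 0.09, adjusted p = 0.000273), with all EVI1 libraries below every control. DNAJA2 fell from 38.0 ± 0.795 to 31.8 ± 0.280 FPKM (-0.25), while the mitochondrial DNAJA3 at 51.1 ± 0.575 and 47.4 ± 2.01 FPKM was not called. Of 9 DNAJB genes tested 4 rose, 1 fell and 4 were not called, where 28.2% of all genes tested rose and 23.7% fell. DNAJB2, a J protein that hands clients to the proteasome and is best known from neurons, rose from 4.35, 3.77 and 4.38 FPKM to 9.33, 8.93 and 8.41 FPKM (0.94, SE 0.09, adjusted p = 8.88e-05). DNAJB5 (3.29 ± 0.351 against 5.20 ± 0.214 FPKM), DNAJB4 (11.1 ± 2.44 against 15.4 ± 0.641 FPKM) and DNAJB14 also rose. The DNAJB4 call was lost under 6 of 15 alternative settings and that of DNAJB14 under 2. DNAJB6, which keeps polyglutamine proteins from aggregating, fell by 0.22 and lost its call under 7 of them.

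DNAJB1, the HSP40 that is induced with HSPA1A by heat, did not separate the groups. It stood at 68.1, 65.5 and 60.4 FPKM in controls and at 65.7, 60.9 and 68.6 FPKM with EVI1 (log2 fold change 0.01, adjusted p = 0.927). DNAJB9, the BiP co-chaperone ERdj4 and a target of the unfolded protein response, was not called either at 5.09 ± 0.800 and 5.39 ± 1.14 FPKM.

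The DNAJC genes, whose proteins share only the J domain and work at fixed places in the cell, held 12 falls and 5 rises among 25 tested. Over all genes tested in K562 23.7% fell and 28.2% rose. DNAJC2, also called MPP11 or ZRF1, sits on the ribosome with HSPA14 and helps new chains to fold, and had the largest fall of all chaperone genes. It went from 53.5, 47.0 and 50.5 FPKM to 22.7, 19.2 and 22.8 FPKM, a mean 2.34 times higher in controls (log2 fold change -1.19, SE 0.09, adjusted p = 2.04e-05). DNAJC12, a co-chaperone of the aromatic amino acid hydroxylases, fell from 14.1, 13.8 and 20.4 FPKM to 6.62, 7.61 and 6.31 FPKM (-1.11). DNAJC5, the cysteine string protein of secretory vesicles, fell from 26.5 ± 1.61 to 16.7 ± 0.511 FPKM (-0.63). DNAJC9, a histone chaperone, fell from 80.6 ± 3.5 to 67.4 ± 2.38 FPKM (-0.25), a call lost under 4 of 15 alternative settings. The remaining falls were in DNAJC8, DNAJC19, DNAJC25, DNAJC21, DNAJC11, DNAJC30, DNAJC7 and DNAJC1, with log2 fold changes from -0.57 to -0.24. Of these calls that of DNAJC1 was lost under 4, that of DNAJC7 under 3 and that of DNAJC30 under 2 of 15 alternative settings.

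The DNAJC rises were in DNAJC15, DNAJC22, DNAJC6, DNAJC24 and DNAJC18. DNAJC15, the J protein of the mitochondrial import channel, was listed at 0.333, 0.160 and 0.120 FPKM in controls and at 1.69, 1.95 and 1.57 FPKM with EVI1 (log2 fold change 1.19). DNAJC15 and DNAJC22 (0.533 ± 0.151 against 1.08 ± 0.0713 FPKM) passed the filter only through the EVI1 libraries, so that their rise was partly set by the filter. DNAJC6, the auxilin that helps HSC70 to strip clathrin from vesicles, rose from 32.6, 34.6 and 36.2 FPKM to 47.8, 51.3 and 41.5 FPKM (0.43, SE 0.09, adjusted p = 0.00485). DNAJC18 and DNAJC24 rose by 0.33 and 0.35, with calls lost under 1 and 4 of 15 alternative settings, and DNAJC3, the P58IPK of the endoplasmic reticulum, was not called at 5.46 ± 0.353 and 6.17 ± 1.16 FPKM.

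The BAG genes, whose proteins share a domain that releases nucleotide from HSP70, had 3 small falls and no rise among 6 tested in K562. Over all genes tested 23.7% fell and 28.2% rose. BAG1 fell from 53.0 ± 1.26 to 43.2 ± 3.11 FPKM (-0.29), BAG2, which also restrains the ubiquitin ligase STUB1, from 9.67 ± 0.770 to 7.35 ± 1.36 FPKM (-0.37), and BAG5 by 0.27. The calls of BAG2 and BAG5 were each lost under 8 of 15 alternative settings and that of BAG1 under 3. BAG3, an HSF1 target that steers clients to autophagy, stood at 26.4 ± 1.32 and 24.9 ± 1.62 FPKM. BAG6, which guards membrane proteins in the cytosol, was the highest of the family at 246 ± 9.65 and 250 ± 16.0 FPKM. Neither was called.

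Genes of both chaperonins fell with EVI1 in K562, HSPE1 and HSPD1 of the mitochondrial one by 0.97 and 0.75 and 4 subunits of the cytosolic one by 0.20 to 0.85. HSPE1, the lid HSP10, went from 466, 454 and 533 FPKM to 226, 232 and 286 FPKM, and no EVI1 library came near a control (log2 fold change -0.97, SE 0.11, adjusted p = 0.000163). HSPD1, the ring subunit HSP60, went from 470, 427 and 493 FPKM to 285, 252 and 287 FPKM (-0.75, SE 0.09, adjusted p = 0.000175). These genes lie head to head on chromosome 2 (HSPE1 at chr2:197499994-197503457 on the plus strand, HSPD1 at chr2:197486581-197516737 on the minus strand in GENCODE 29). Their annotated exons overlap, and without a stated strand the reads of the overlap cannot be told apart. HSPE1 shares 22.3% of its 75-base stretches with the readthrough gene HSPE1-MOB4.

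The CCT subunits form the ring that folds actin and tubulin, in equal number in the finished complex. Of 7 tested CCT genes 4 fell and 3 were not called, where 23.7% of all genes tested fell. CCT6A fell most, from 279, 257 and 250 FPKM to 144, 143 and 149 FPKM (log2 fold change -0.85, SE 0.07, adjusted p = 3.05e-05). CCT8 fell from 426 ± 42.6 to 316 ± 16.5 FPKM (-0.43), CCT5 from 625 ± 35.9 to 519 ± 14.6 FPKM (-0.27) and CCT3 from 380 ± 13.0 to 330 ± 11.4 FPKM (-0.20). CCT2, CCT4 and CCT7 were not called, with log2 fold changes of -0.11, -0.07 and -0.07 and overlapping groups. The CCT3 call was lost under 10 of 15 alternative settings and that of CCT5 under 4. CCT6B and CCT8L2, the testis relatives, were below 0.5 FPKM in every library and were not tested. TCP1, the subunit outside the name rule, fell from 515 ± 41.4 to 338 ± 13.4 FPKM (-0.60).

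**Figure D2:**
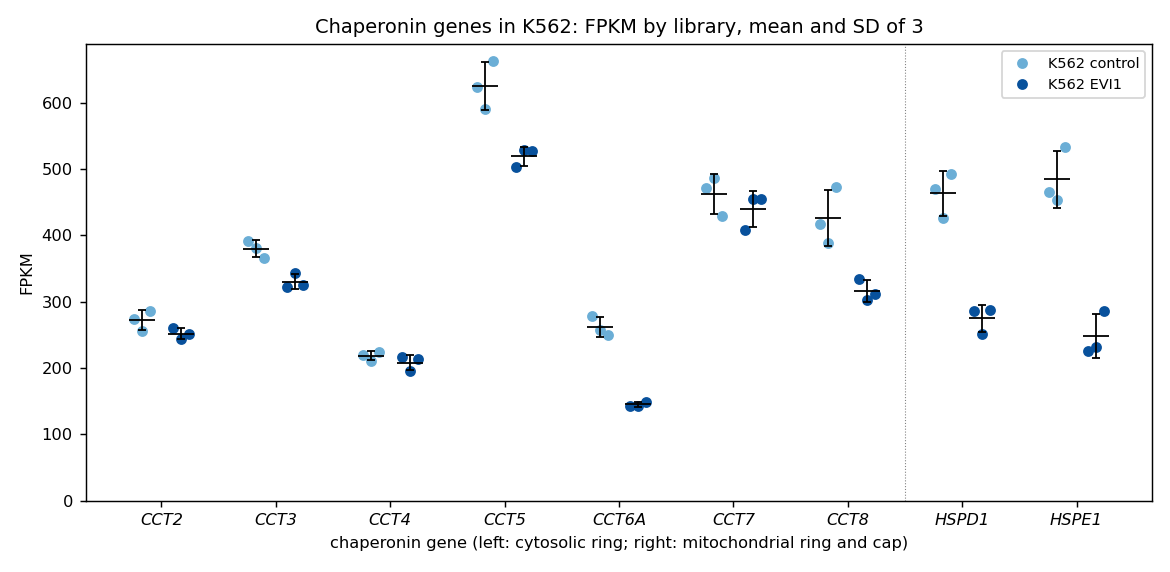
FPKM of the chaperonin genes in each of the 6 K562 libraries (points), with mean and SD of 3 (bars), the cytosolic CCT subunits on the left and mitochondrial HSPD1 and HSPE1 on the right. The EVI1 points of CCT6A, HSPD1 and HSPE1 lie far below all control points, while those of CCT2, CCT4 and CCT7 lie among them.

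By place of work, the 13 genes of the endoplasmic reticulum had 5 rises (HSPA5, HSP90B1, HSPA13, DNAJB14 and DNAJC18), 2 falls (DNAJC25 and DNAJC1) and a median log2 fold change of 0.12 in K562, where 28.2% of all genes tested rose and 23.7% fell. Without both libraries that list mitochondrially encoded genes at 0, HSPA13, DNAJB14, DNAJC18 and DNAJC1 lost their calls, which left 2 rises and 1 fall. The 8 tested mitochondrial genes had 5 falls (HSPE1, HSPD1, DNAJC19, DNAJC11 and DNAJC30), 1 rise (DNAJC15) and a median of -0.35. The DNAJC30 call was lost without both libraries with those zeros, and DNAJC15 passed the filter only through the EVI1 libraries. Of 6 J proteins of the ribosome, nucleolus, spliceosome and histones 5 fell, with DNAJC17 as the member not called, and the median was -0.34. DNAJC1, which is also in the endoplasmic reticulum list, and DNAJC9 lost their calls without both libraries with those zeros. Of 13 classic HSF1 targets 5 fell, 2 rose and 6 were not called, with a median of -0.08. HSPA8, HSPH1, HSPB1, DNAJA1 and HSPA4 were the falls, HSPA4L and DNAJB4 the rises (calls lost under 3 and 6 of 15 alternative settings), and the heat-inducible HSPA1A, DNAJB1 and BAG3 were among those not called. HSF1 itself was at 68.4 ± 6.79 and 66.4 ± 3.31 FPKM (not called). Of 42 chaperone genes outside the name rule, which include prefoldins and HSP90 partners, 15 fell and 4 rose (AHSA1, CLPB, GRPEL2 and CDC37L1). The prefoldin subunit PFDN4 had the lowest value of these, from 62.2 ± 4.22 to 31.7 ± 7.92 FPKM (-0.98).

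Of the 89 genes, 18 did not pass the filter in K562. They were DNAJC5B, listed at 0 in every K562 library, and HSPA2, HSPA12A, HSPA12B, HSPB2, HSPB6, HSPB7, HSPB8, HSPB9, DNAJA4, DNAJB3, DNAJB7, DNAJB8, DNAJB13, DNAJC5G, DNAJC28, CCT6B and CCT8L2. DNAJC28 was the highest of them at 0.802 ± 0.168 and 0.957 ± 0.0909 FPKM. Most are known from testis, muscle or nerve.

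In the libraries labelled MOLM14 rises were more numerous than falls. Of 29 chaperone genes tested, 16 rose (55.2%, against 27.4% of all 13315 rows tested) and 6 fell (20.7% against 26.8%). The other 7 were not called (75.9% called in all, against 54.2%). The median log2 fold change of the 29 was 0.25, against -0.01 over all rows. Among the 3768 tested rows with usable names 1146 rose and 1012 fell, with a median of 0.02. HSPH1 rose most, from 27.8, 25.1 and 25.3 FPKM to 87.9, 80.7 and 83.2 FPKM, a 3.22-fold higher mean (log2 fold change 1.65, SE 0.06, adjusted p = 3.18e-06). HSPA8 rose from 706, 689 and 899 FPKM to 2317, 1794 and 1855 FPKM (1.38, SE 0.13, adjusted p = 0.000122). In both genes every EVI1 library lay far above every control, and 30.9% of all rows tested had every EVI1 library above every control.

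Of the J proteins DNAJA1 rose most. It went from 71.8, 67.6 and 67.4 FPKM to 152, 150.1 and 148 FPKM, with libraries of a group close together (log2 fold change 1.11, SE 0.05, adjusted p = 4.89e-06). HSPE1 went from 149, 155 and 188 FPKM to 358, 262 and 287 FPKM (0.87, SE 0.13, adjusted p = 0.000951). DNAJC11, a J protein of the mitochondrial membrane, rose by 0.68, DNAJB6 by 0.67, BAG1 by 0.66, DNAJC25 by 0.62, DNAJC2 by 0.59, DNAJC5 by 0.58, DNAJA2 by 0.53 and BAG2 by 0.36. The cytosolic HSP90 genes rose less steeply, HSP90AA1 from 593, 545 and 521 FPKM to 782, 776 and 770.3 FPKM (0.49) and HSP90AB1 from 1752, 1719 and 1631 FPKM to 2095, 2178 and 2143 FPKM (0.33). DNAJB11, the BiP co-chaperone ERdj3, rose by 0.25. HSPB1 rose by 0.19, a call that was lost under 8 of 14 alternative settings. All 6 tested HSF1 targets rose, with a median of 0.80, where 27.4% of all rows tested rose. None of the other 7 lie in the usable rows.

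HSPA5 had the largest fall there, from 281, 275 and 264 FPKM to 149.8, 153 and 149.7 FPKM, a mean 1.81 times higher in controls (log2 fold change -0.85, SE 0.05, adjusted p = 9.75e-06). The groups were far apart and each was narrow, and 30.8% of all rows tested had every EVI1 library below every control. DNAJC6 fell by 0.63, DNAJC4 by 0.54, DNAJC27 by 0.49, DNAJC3 by 0.34 and HSPA9, from 302 ± 4.77 to 259.5 ± 3.40 FPKM, by 0.22. CCT4 was the CCT subunit in the usable rows, and at 220 to 227 FPKM in controls and 237 to 250.1 FPKM with EVI1 it was just short of a call (adjusted p = 0.0528). DNAJA3, DNAJC10, DNAJC12, DNAJC16, DNAJC17 and HSPB11 were not called either. HSPB6 and DNAJC15 were below the filter. Of 23 chaperone genes outside the name rule 10 rose, among them GRPEL1, CHORDC1, AHSA1, STUB1 and TCP1. Falls were called in 3: PFDN5, SEC63 and SIL1, the exchange factor of BiP. Over all rows tested 27.4% rose and 26.8% fell. TRIB3, a target of the unfolded protein and amino acid responses, fell from 87.1 to 99.4 FPKM to 16.6 to 18.7 FPKM in these libraries, and EGR1, the other usable stress marker, rose by 0.28. Their part in the chaperone results was not tested.

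**Figure D3:**
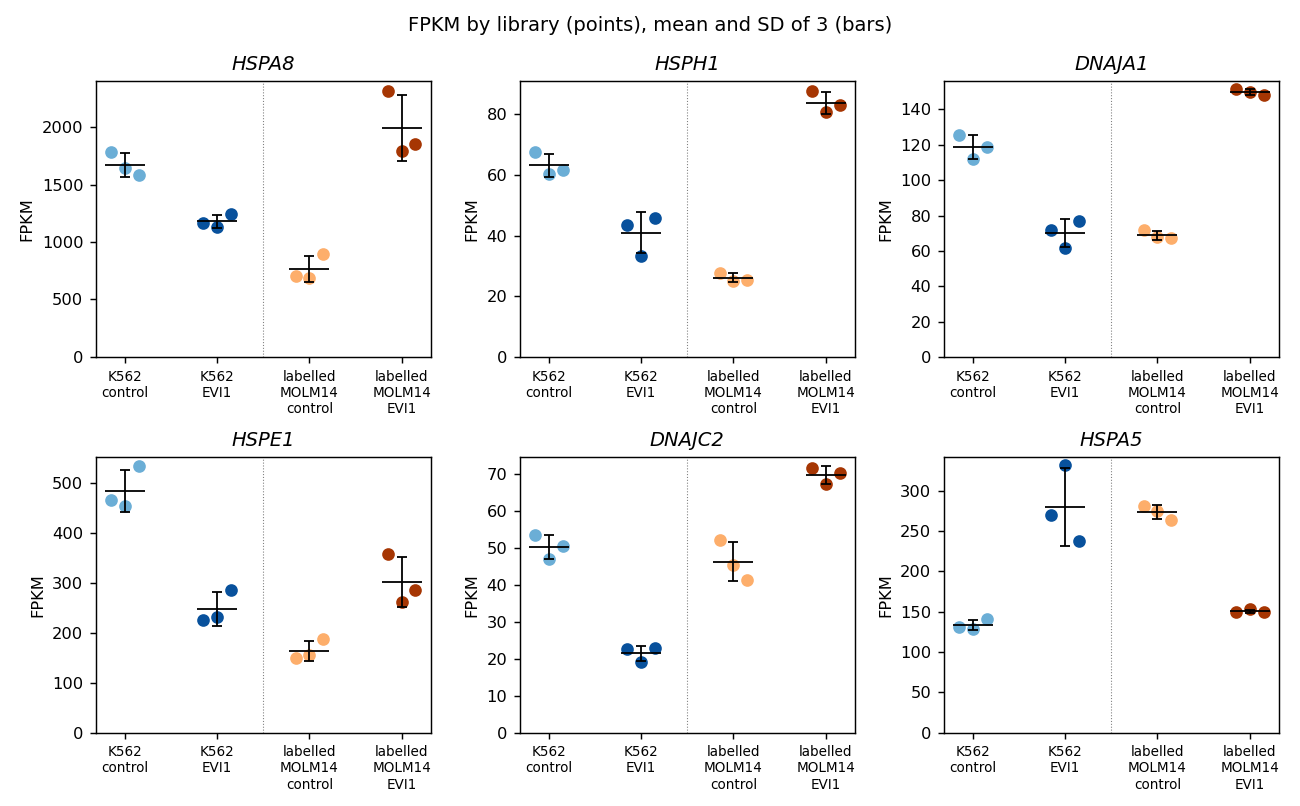
FPKM of HSPA8, HSPH1, DNAJA1, HSPE1, DNAJC2 and HSPA5 in each of the 12 libraries (points), with mean and SD of the 3 libraries of a group (bars), K562 left and the libraries labelled MOLM14 right of the dotted line. In the first 5 genes the EVI1 points lie below the controls in K562 and above them under the label MOLM14, and HSPA5 shows the opposite on both sides.

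Most of these genes had opposite effects of EVI1 under the labels, and the difference of the effects was tested across all 12 libraries. Of 29 genes tested, 18 had a higher effect under the label MOLM14 (62.1%, against 34.1% of 3697 genes) and 4 a lower one (13.8% against 30.8%), together 75.9% against 64.9%, with a median difference of 0.72 log2 units against 0.04. Estimates had opposite signs in 25 of 29 genes (86.2%), and in 61.3% of all genes. Of the 15 genes called under both labels all 15 moved in opposite directions, which held for 899 of 1222 (73.6%) among all genes. HSPA8, HSPH1, DNAJA1, DNAJA2, DNAJB6, DNAJC2, DNAJC5, DNAJC11, DNAJC25, BAG1, BAG2, HSPE1 and HSPB1 fell in K562 and rose under the other label, and HSPA5 and DNAJC6 rose in K562 and fell there.

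The largest difference was that of HSPH1, 2.27 log2 units (SE 0.14, adjusted p = 6.8e-09 by limma), from an effect of -0.62 in K562 and of 1.65 under the label MOLM14. HSPA8 (1.88), DNAJA1 (1.86), HSPE1 (1.84) and DNAJC2 (1.77) followed. HSPA5 had the lowest difference, -1.90 (SE 0.13, adjusted p = 1.81e-08), and DNAJC6 followed with -1.06. DNAJC12 fell in K562 (-1.11) and was not called under the other label (-0.08), with a difference of 1.03. The 7 genes with no called difference were CCT4, DNAJA3, DNAJC10, DNAJC16, DNAJC17, DNAJC27 and HSPA9, most of which had small effects under both labels.

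**Figure D4:**
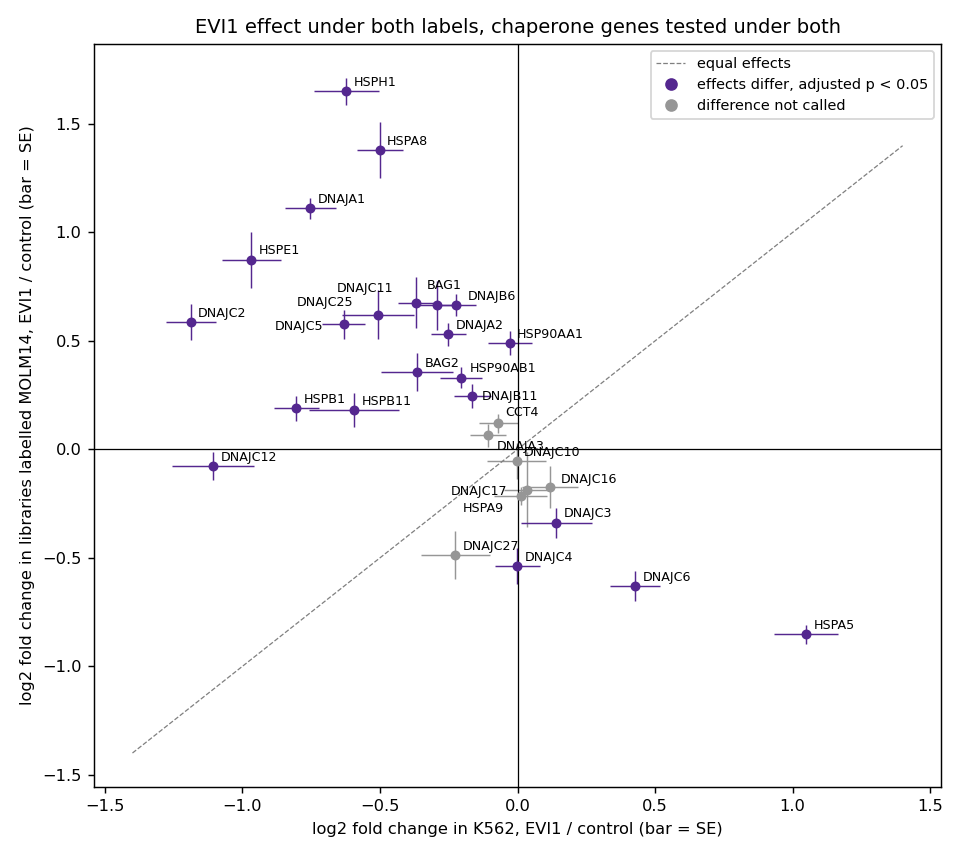
Log2 fold change of EVI1 over control in K562 (horizontal) and in the libraries labelled MOLM14 (vertical) for the 29 chaperone genes tested under both, with bars for standard errors and purple for a called difference of effects. Most points lie at the upper left, led by HSPH1, HSPA8, DNAJA1 and HSPE1, and HSPA5 and DNAJC6 lie farthest to the lower right.

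Control levels of some of these genes lay apart under the labels. They are given side by side without a test because the columns may come from separate Cuffnorm runs. HSPA8 averaged 1669 FPKM in K562 controls and 765 FPKM in controls labelled MOLM14, HSPE1 484 and 164 FPKM, HSPH1 63.2 and 26.1 FPKM, and HSPB1 595 and 223 FPKM. HSPA5 averaged 134 and 273 FPKM, the reverse. Others were closer, as DNAJC2 at 50.3 and 46.3 FPKM, DNAJB6 at 118 and 106 FPKM, DNAJA2 at 38.0 and 35.2 FPKM, HSP90AB1 at 1929 and 1701 FPKM and HSPB11 at 79.5 and 82.9 FPKM. DNAJC12 (16.1 and 30.4 FPKM), DNAJC25 (4.49 and 5.34 FPKM) and BAG2 (9.67 and 11.0 FPKM), whose effects were also higher under the label MOLM14, had the higher control level there. With EVI1, HSPA8 averaged 1179 and 1989 FPKM and HSPA5 280 and 151 FPKM, so that the order of the labels was exchanged for both.

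The promoter motifs shown above can be set beside these calls as a description. Of the 7 genes with a heat shock element, 4 fell in K562 (HSPA8, DNAJA1, DNAJB6 and HSPD1) and 3 were not called (HSP90AA1, HSP90AB1 and HSPA6), where 23.7% of all genes tested fell. The DNAJB6 call was lost under 7 of 15 alternative settings. The 5 of them that were tested under the label MOLM14 rose, as did 27.4% of all rows tested. HSPA8, DNAJA1, HSP90AA1 and HSP90AB1 are also in the list of classic HSF1 targets, so that the counts of both lists share genes. Of the 8 genes with an E-box 4 also fell in K562, 1 rose and 3 were not called, and of 4 tested under the label MOLM14 1 rose and 1 fell. Both genes with an endoplasmic reticulum stress element rose in K562, and HSPA5, the tested one, fell under the other label.

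The summed level of the genes moved as their most abundant members did. All 89 together held 11594, 11039 and 11548 FPKM in K562 controls and 9467, 9473 and 9594 FPKM with EVI1, and no EVI1 library reached a control. The 31 genes of the usable rows held 7052, 6693 and 6936 FPKM in K562 controls and 5542, 5606 and 5610 FPKM with EVI1. Under the label MOLM14 they held 5052, 4951 and 5016 FPKM in controls and 7557, 7007 and 7037 FPKM with EVI1. In K562 the HSPD1 and HSPE1 sum fell within the total from 881 to 1027 FPKM to 484 to 573 FPKM, while the DNAJB sum was 298 to 302 FPKM in controls and 296 to 299 FPKM with EVI1.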

How the data were processed

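Total RNA libraries of human cell lines were sequenced after TruSeq preparation, per the labels, whose extraction text speaks of mouse tissue. The deposited values are FPKM, which the authors made with Cufflinks and Cuffnorm after STAR on hg38 or GRCh38, per the submitters' processing notes, without versions. Counts per gene and strand use are not given in the sources used here, so overlapping genes and near-identical copies cannot be separated. Groups and replicates follow the sample titles.

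Tables were handled in Python 3.11.15 (NumPy 2.4.6, pandas 2.3.3, SciPy 1.17.1). Genes that reached 1 FPKM in 3 or more libraries of a fit were tested as log2(FPKM + 1) in R 4.3.3 with limma 3.58.1 (trend, two-sided, adjusted over all genes of the fit), separately for the 6 libraries of each label, and over all 12 for the difference of effects. The fit for the label MOLM14 used every row, and names in it the first 5510. In windows of 500 of those rows, the control means correlated between labels at r = 0.965 or more. K562 depth was estimated from the steps of low values. The scripts were tested on simulated data.

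Genes named in the text are the main members of each subfamily, every CCT gene, the 10 largest rises and falls in K562, the 5 largest under the label MOLM14, every gene with a called difference, and the 5 highest in K562 controls. Others, such as HSPB8 and HSPA7, were named after their values were seen. Members and lists were chosen with earlier results of these data known. Exon positions, overlaps and shared 75-base stretches come from GENCODE 29, in which 80 of the 89 identifiers were found with the same version; promoter windows come from RefSeq, and 12 of the 89 genes had none. Alternatives were a pseudocount of 0.1, no filter, other scalings, limma without the trend, the replicate number as a block, and leaving out each library; median-of-ratios scaling, the sum without mitochondrially encoded genes, the fit on the first 5510 rows alone and leaving out the libraries with zeros were added after seeing the data.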

Additional observations from a re-analysis of the deposited data

Results flagged for a closer look

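In 22 of the 29 chaperone genes tested under both labels, the effect of EVI1 differed between the libraries labelled MOLM14 and K562 by limma's test of the difference itself, at an adjusted p under 0.05; 64.9% of all 3697 genes tested did. Differences are given as the effect under the label MOLM14 minus that in K562, in log2 units. For the HSP70 machine they were 1.88 for HSPA8, 2.27 for its exchange factor HSPH1, 1.86 for DNAJA1, 0.78 for DNAJA2, 0.89 for DNAJB6, 0.96 for BAG1 and 0.72 for BAG2. For the cytosolic HSP90 genes they were 0.52 for HSP90AA1 and 0.54 for HSP90AB1, and for the small heat shock family 0.99 for HSPB1 and 0.78 for HSPB11.

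Mitochondrial HSPE1 differed by 1.84 and DNAJC11 by 1.05. Ribosome-bound DNAJC2 differed by 1.77, vesicle protein DNAJC5 by 1.21, DNAJC25 by 1.13 and DNAJC12 by 1.03. In the endoplasmic reticulum HSPA5 differed by -1.90 and DNAJC3 by -0.48, while DNAJB11 differed by 0.41. DNAJC6 differed by -1.06 and DNAJC4 by -0.54. DNAJC3 lost its call under quantile normalization.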

How the results depend on the processing

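No called direction was reversed under any alternative run. In K562, 24 of 44 calls were kept under every alternative, 4 were lost under 1 and 16 under several, CCT3 under 10 of 15. DNAJC15 and DNAJC22 did not pass the filter where a K562 EVI1 library was left out, so that they were tested under 11 of 15 alternatives. DNAJC15 is among the 24 kept and DNAJC22 among the 4 lost under 1. Under the label MOLM14, 21 of 22 were kept (the exception was HSPB1), and 21 of 22 for the difference (the exception was DNAJC3). With libraries rescaled to the same FPKM sum, 19 genes fell in K562 in place of 31, and 27 when mitochondrially encoded genes were left out of the sum. Of all genes tested 2178 of 13800 and 2789 of 13814 fell in these fits, in place of 3265 of 13800. Without K562 control replicate 2 and K562 EVI1 replicate 1 together, 5 rose in place of 13. Of all genes tested 2573 of 12683 then rose, in place of 3898 of 13800. That fit had 2 libraries per group. Leaving out 1 library at a time gave 8 to 13 rises and 23 to 29 falls in K562 (the fewest rises without EVI1 replicate 3), 15 to 16 rises and 6 falls under the label MOLM14, and 18 to 19 and 4 to 5 for the difference. The mean summed level over all 89 genes in K562 EVI1 was 9511 FPKM and 9781 after rescaling, and that of the 31 genes in controls labelled MOLM14 5006 and 5060 FPKM. Apart from the smaller number of libraries and the filter, the cause was not tested.

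Replicate numbers did not pair the samples. Same-numbered control and EVI1 libraries correlated in their deviations at -0.215, -0.052 and 0.126 in K562. Under the label MOLM14 they correlated at -0.009, -0.025 and -0.053. Over all pairs of a K562 control and a K562 EVI1 library the values ran from -0.237 to 0.223. The highest was between control replicate 2 and EVI1 replicate 1, which list mitochondrially encoded genes at 0, and its cause was not tested. With the replicate number as a block, 13 genes rose and 29 fell in K562, 17 rose and 7 fell under the label MOLM14, and 18 and 4 differed. FPKM alone gives no counting error, and no depth is known for the label MOLM14.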
